A study of Mus musculus with 6 samples.

Results

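Glutathione transferases, UDP-glucuronosyltransferases and sulfotransferases, the main conjugating enzymes of phase II drug metabolism, were described in the liver of mice lacking Creb3l3. They were taken as all probes whose gene symbol in the array files begins with Gsta, Gstk, Gstm, Gsto, Gstp, Gstt, Gstz or Mgst and a number, with Ugt1a, Ugt2a or Ugt2b, or with Sult and a number. This gave 87 of 45281 probes, for 54 of 30869 gene symbols: 39 probes of 24 glutathione transferase genes, 32 of 19 glucuronosyltransferase genes and 16 of 11 sulfotransferase genes. The tested mice were Creb3l3-deficient males (KO, 3 mice) and they were compared with wild-type male littermates (WT, 3 mice). All were C57BL/6 mice on normal chow, had gone 24 h without food, and gave 1 Illumina WG-6 bead array of total liver RNA each. The labels give neither an age nor the construction of the deleted allele.

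These enzymes attach a water-soluble group to drugs, hormones, bilirubin, bile acids and reactive lipid products, which are then exported into bile or blood. Glutathione transferases join glutathione to electrophilic compounds such as lipid aldehydes. Glucuronosyltransferases use UDP-glucuronic acid and sit in the endoplasmic reticulum, and sulfotransferases use the sulfate donor PAPS in the cytosol. Creb3l3, also called CREBH, is a transcription factor held in the endoplasmic reticulum membrane of hepatocytes and released by cleavage, and it is known for the fasting control of triglyceride and glucose metabolism.

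The libraries were checked first. The Creb3l3 probe had deposited signals of 148.1, 283.5 and 87.9 in KO replicates 1, 2 and 3, against 1201, 949 and 929 in WT replicates 1, 2 and 3. KO replicate 3 stood apart: 4302 probes were detected on it (detection p under 0.05, of which 2264 would be detected by chance), against 11846 and 15867 on the other KO arrays and 15504 to 16224 on the WT arrays. Its correlation with the other arrays over all probes was 0.676 to 0.698 (Pearson's r), and those correlated with each other at 0.973 to 0.993. Of the 87 conjugating enzyme probes it detected 31, against 55 and 59 on KO replicates 1 and 2 and 59 to 63 on the WT arrays. The values below therefore come from KO replicates 1 and 2 and the 3 WT arrays (the 5 arrays) unless the 6 arrays are named, and the value over all 6 arrays is given for the main results; dropping KO replicate 3 was decided after its signals were known. KO replicate 1 was also dim: its deposited signal lay below that of every WT array for 55 of the 59 tested conjugating enzyme probes, beside 85.9% of all 14345 tested probes, and its median ratio to the WT mean was 0.540 for these enzymes and 0.764 over all tested probes. For KO replicate 2 the signal lay below every WT array for 10 of the 59 probes and above every WT array for 31, beside 11.2% and 43.9% of all tested probes. The direction of a change therefore rests on the normalization between arrays, and whether dimness, RNA quality or genotype moved a value was not tested.

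Changes are differences of normalized log2 signals, KO minus WT, tested with limma on every probe that was detected on at least 3 arrays, with p-values adjusted by Benjamini-Hochberg over all of them. A probe was called at an adjusted p under 0.05. Creb3l3 itself averaged 7.40 ± 0.07 in KO livers (SD, n = 2) and 9.72 ± 0.02 in WT livers (SD, n = 3), a change of -2.32 ± 0.15 (SE) on the log2 scale with a limma adjusted p of 0.00271. Hepatocyte markers summed to 16.02 and 16.04 in KO livers and to 16.01 to 16.09 in WT livers on the log2 scale, as for liver tissue. None of the 4 T and B cell markers on the array was detected well enough to be tested.

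Among the conjugating enzymes, 59 probes of 38 genes could be tested: 34 probes of 21 glutathione transferases, 20 of 13 glucuronosyltransferases and 5 of 4 sulfotransferases. A single probe was called, a Ugt1a5 probe that was lower in KO livers, beside 0.279% of all tested probes called lower. No member was called higher, beside 0.0627% of all tested probes. Without a multiple-test adjustment, 10 member probes were higher and 7 lower at p under 0.05, beside 4.66% and 7.47% of all tested probes. The 16 genes that could not be tested were Gstm3, Gstt4 and Mgst2; Ugt1a7c, Ugt2a1, Ugt2a2, Ugt2b5, Ugt2b37 and Ugt2b38; and Sult1b1, Sult1c1, Sult1e1, Sult2a1, Sult2b1, Sult3a1 and Sult4a1. With all 6 arrays no probe of the whole array was called in either direction (0% and 0%) by limma, and the unadjusted p was under 0.05 for 2 member probes higher and 4 lower in KO livers, beside 0.552% and 3.3% of all tested probes. Groups of all 6 arrays did not overlap for 3 member probes higher and 10 lower, beside 3.99% and 13.4% of all tested probes.

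The 3 enzyme classes differed in where their changes lay, as a description without a test. With the brightest probe of each gene, by its mean over the 5 arrays, 15 of 21 glutathione transferases were above 0 (median log2 change 0.43), whereas 5 of 13 glucuronosyltransferases were above 0 (median -0.25). Of the 4 sulfotransferases 3 were above 0 (median 0.32). The median over all tested probes was -0.03, and 45.4% of them were above 0. Counted by probe, the values of the KO arrays lay wholly above those of the WT arrays for 9 of 34 glutathione transferase probes and wholly below for 3, beside 12.9% and 16.4% of all tested probes. For the glucuronosyltransferases the KO arrays lay wholly above for 1 and wholly below for 8 of 20 probes, and for the sulfotransferases for 0 and 1 of 5.

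**Figure D1:**
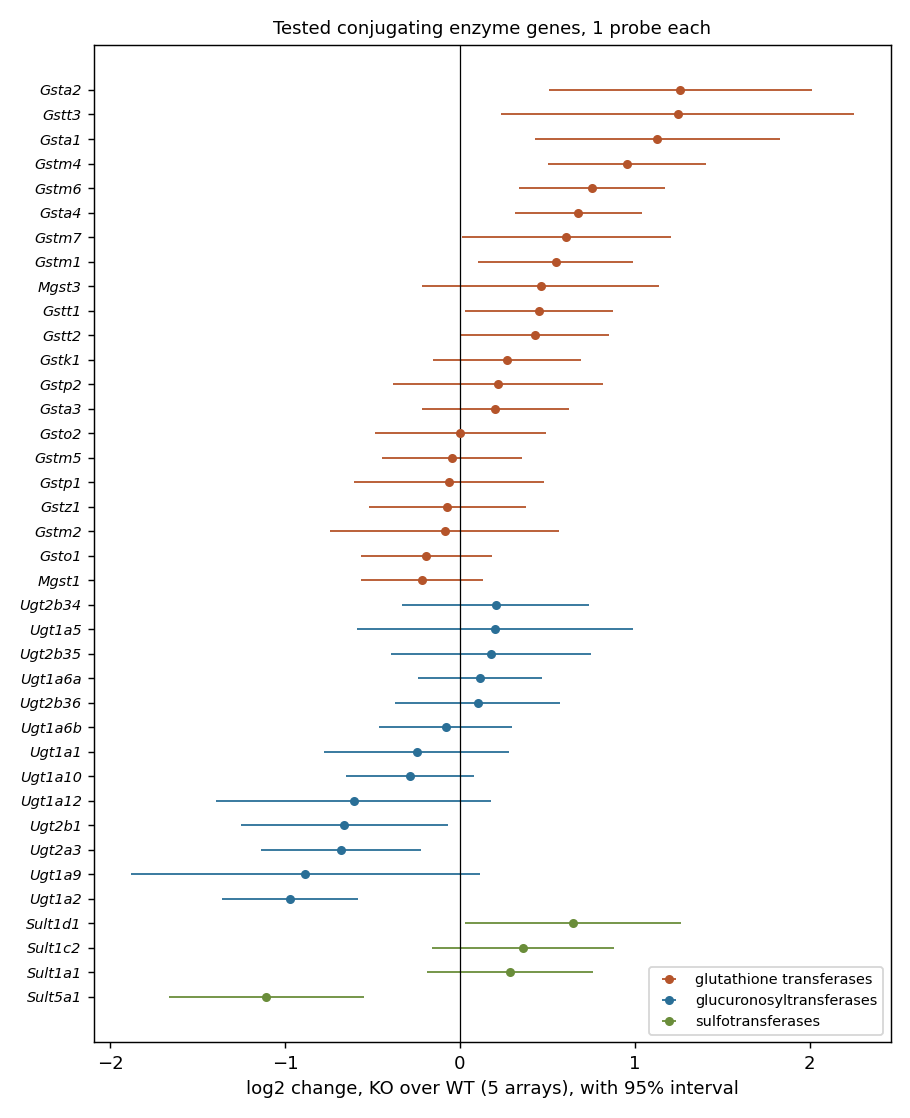
Log2 change of each tested gene, KO over WT in the 5 arrays (x axis), by its brightest probe, with the 95% interval from limma; colours mark the 3 enzyme classes. Most glutathione transferases lie right of 0 and 8 of 13 glucuronosyltransferases left of it; Ugt1a5 is shown here by its probe with the higher mean over the 5 arrays, at 0.20, not by the probe that was called.

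With KO replicate 3 included, the class medians were -0.09 for glutathione transferases, -0.29 for glucuronosyltransferases and -0.22 for sulfotransferases, against a median of -0.28 over all tested probes. Then 9 of 21, 1 of 13 and 1 of 4 genes were above 0, beside 27.3% of all tested probes. These class medians take the brightest probe of each gene, whereas the all-probe median takes every probe. Over all tested genes, by the brightest probe, the median was -0.02 in the 5 arrays and -0.25 in the 6. By probe, the 5-array medians were 0.29 for glutathione transferases and -0.27 for glucuronosyltransferases. Measured from the all-probe median, the glutathione transferase median by gene was 0.46 above it in the 5 arrays and 0.19 above it in the 6. The glucuronosyltransferase median was 0.21 below it in the 5 arrays and 0.01 below it in the 6. The glutathione transferase and glucuronosyltransferase medians thus stood further apart without KO replicate 3 than with it. In bulk liver, fewer cells of a type and less RNA per cell cannot be told apart.

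**Figure D2:**
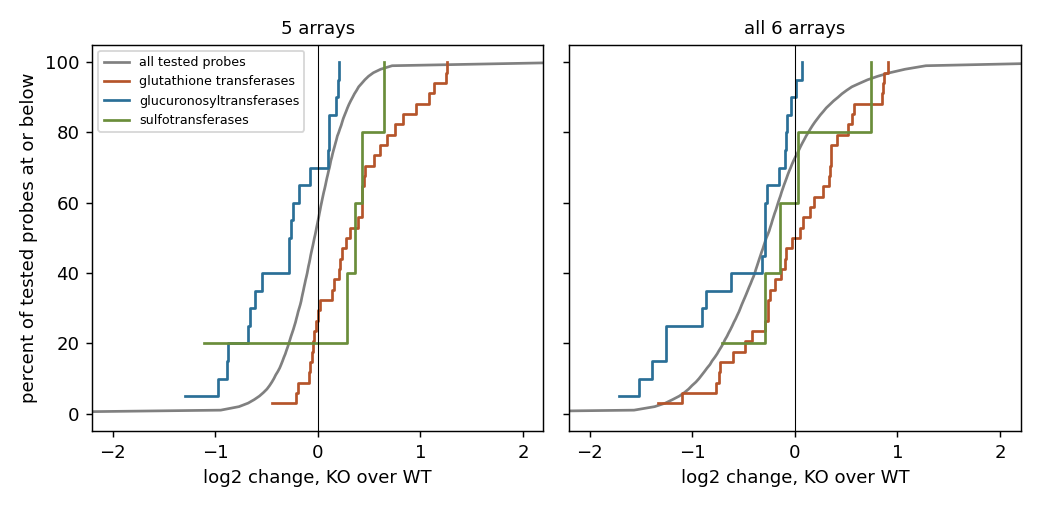
Percent of tested probes (y axis) at or below each log2 change, KO over WT (x axis), for the 3 classes and for all tested probes, in the 5 arrays (left) and all 6 arrays (right). In the 5 arrays the glutathione transferase line lies to the right of the grey line and the glucuronosyltransferase line to its left. In the 6 arrays every line has a lower median, but the upper end of the grey line lies further right. Its 95% point is at 0.71 there, against 0.46 in the 5 arrays.

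Among the glutathione transferases, all alpha class probes lay on the same side of 0 in the 5 arrays. These enzymes conjugate lipid peroxidation products and other electrophiles. All 7 tested probes of the 4 Gsta genes were above 0, of which 3 belong to Gsta1 and 2 to Gsta3. The KO arrays lay wholly above the WT arrays for 4 of the 7, beside 12.9% of all tested probes. The brightest Gsta2 probe read 7.79 and 8.95 in KO livers and 7.39, 6.90 and 7.03 in WT livers on the normalized log2 scale. Both KO values lay above all WT values, and the higher of them was in KO replicate 2. Its log2 change was 1.26 ± 0.33 (SE), 2.40-fold, but it was not called (limma adjusted p = 0.235). Over all 6 arrays the Gsta2 change was 0.91 ± 0.43 (SE), with a KO replicate 3 value of 7.15.

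Gsta1 behaved much like Gsta2. Its brightest probe read 7.64 and 8.73 in KO livers and 7.25, 7.04 and 6.88 in WT livers, a log2 change of 1.13 ± 0.30 (SE, limma adjusted p = 0.245). The groups did not overlap in the 5 arrays, whereas over the 6 arrays they did, with a change of 0.35 ± 0.69 (SE). This probe was not detected on KO replicate 3. The other Gsta1 probes changed by 1.09 and 0.83 with overlapping arrays, since KO replicate 1 read 5.04 and 4.37 on them, the latter undetected. KO replicate 2 read 7.89 and 7.17 there, against 4.99 to 5.92 and 4.58 to 5.54 in WT livers. When KO replicate 1 was left out, so that KO replicate 2 stood alone, Gsta1 and Gsta2 were both called higher with limma adjusted p-values of 0.0336 and 0.0348 and log2 changes of 1.70 and 1.86. When KO replicate 2 was left out, neither was called, and the log2 changes were 0.58 for Gsta1 and 0.68 for Gsta2. The genes are close paralogs, and no source used here says whether the probes separate them.

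Gsta4, which conjugates the lipid aldehyde 4-hydroxynonenal, read 8.20 and 8.02 in KO livers and 7.45, 7.46 and 7.39 in WT livers. The KO arrays were close together and above all WT arrays, with a log2 change of 0.68 ± 0.16 (SE, limma adjusted p = 0.184). In the 6 arrays KO replicate 3, where the probe was not detected, read 4.42 and the change was -0.48 ± 0.95 (SE). The direction of Gsta4 thus turned with a background value of that array. Gsta3 changed by 0.20 ± 0.18 (SE) with overlapping arrays on its brightest probe. On its other probe it changed by 0.31 ± 0.16 (SE), with KO arrays wholly above WT. In the 6 arrays that probe, not detected on KO replicate 3, changed by -0.77 ± 0.89 (SE).

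No promoter window was found for Gsta4. The promoters of the other alpha genes are shown because their transcripts differed in size of change although the genes form one family. They are RefSeq windows of 250 bases before to 50 bases after the start site on GRCm38.p6, printed 5′ to 3′ along the gene's strand. Capitals mark matches, on either strand, to TGACNNNGC, the core of the antioxidant response element; TGACGTCA, the cyclic AMP response element bound by CREB family factors; its shorter form TGACG, which lies within it; and TTAATNATT, the core of the site known for HNF1 factors.
Gsta1 (chr9:78230419-78230718, plus strand): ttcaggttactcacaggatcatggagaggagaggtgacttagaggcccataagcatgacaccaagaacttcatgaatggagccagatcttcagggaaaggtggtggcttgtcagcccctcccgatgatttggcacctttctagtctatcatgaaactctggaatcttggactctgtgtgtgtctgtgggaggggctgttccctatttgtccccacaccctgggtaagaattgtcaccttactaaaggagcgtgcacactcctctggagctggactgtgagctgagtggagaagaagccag
Gsta2 (chr9:78347096-78347395, minus strand): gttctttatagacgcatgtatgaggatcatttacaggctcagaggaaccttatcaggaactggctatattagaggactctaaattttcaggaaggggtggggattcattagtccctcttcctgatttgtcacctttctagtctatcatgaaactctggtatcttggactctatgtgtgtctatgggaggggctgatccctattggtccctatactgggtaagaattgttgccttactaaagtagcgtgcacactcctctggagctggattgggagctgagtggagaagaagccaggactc
Gsta3 (chr1:21240335-21240634, plus strand): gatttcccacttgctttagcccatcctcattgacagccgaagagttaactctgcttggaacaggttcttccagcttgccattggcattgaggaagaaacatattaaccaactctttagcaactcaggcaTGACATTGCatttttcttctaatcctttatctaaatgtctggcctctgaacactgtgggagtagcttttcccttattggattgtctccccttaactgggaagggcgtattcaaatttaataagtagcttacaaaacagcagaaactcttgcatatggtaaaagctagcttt
Gsta1 and Gsta2, which gave the larger changes, held none of the 4 motifs in this window and were identical at 238 of 316 aligned positions (75.3%). Gsta3 held 1 TGACNNNGC match and was identical to Gsta1 at 185 of 337 aligned positions. Over all 32851 promoter windows, 12.4% held TGACNNNGC, 20.8% TGACG, 1.79% TGACGTCA and 1.47% TTAATNATT. Of the 43 windows of tested member genes, 4 held TGACNNNGC, 5 held TGACG and 0 held TGACGTCA.

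The mu class was mixed. Gstm4 read 7.86 and 7.90 in KO livers and 6.92, 7.20 and 6.65 in WT livers. Both KO arrays were above every WT array by more than the spread within either group, the log2 change was 0.95 ± 0.20 (SE), 1.94-fold, and the limma adjusted p was 0.139. It was called higher under 3 of 15 other settings: with an offset of 50 in the background correction, with a trended and robust variance, and with KO replicate 2 left out. In the 6 arrays KO replicate 3, where the probe was not detected, read 4.27 and the Gstm4 change was -0.19 ± 0.94 (SE).

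Gstm6 read 9.15 and 8.97 in KO livers and 8.13, 8.53 and 8.25 in WT livers on its brightest probe. The groups did not overlap in the 5 arrays (log2 change 0.75 ± 0.18 SE, limma adjusted p = 0.203) nor in the 6 (0.87 ± 0.23 SE, with KO replicate 3 at 9.17). Its other probes changed by 0.39 and 0.24 with overlapping arrays. Gstm1 changed by 0.55 ± 0.19 (SE) with KO arrays wholly above WT arrays, and Gstm7 by 0.61 ± 0.26 (SE) with overlap. Gstm2, by its 3 probes, lay between -0.09 and 0.16, and Gstm5 changed by -0.05 ± 0.17 (SE). The mu genes neighbour one another on chromosome 3 and resemble each other in sequence, and no source used here says whether each probe reads 1 of them.

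The theta class had its 3 tested genes above 0. Gstt3 read 10.64 and 9.38 in KO livers and 8.38, 9.51 and 8.41 in WT livers. WT replicate 2 lay above KO replicate 2, so the groups overlapped despite a log2 change of 1.25 ± 0.44 (SE, limma adjusted p = 0.355). With KO replicate 3 included, where the probe was not detected, Gstt3 changed by -0.42 ± 1.42 (SE). Gstt1 changed by 0.45 ± 0.18 (SE) and lay wholly above WT in both the 5 and the 6 arrays, where its change was 0.58 ± 0.24 (SE). The probes of Gstt2 disagreed: the brighter changed by 0.43 ± 0.19 (SE) and the dimmer by -0.45 ± 0.21 (SE). Each kept its groups apart in the 5 and in the 6 arrays, in opposite directions. The dimmer was not detected on KO replicate 3.

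Other glutathione transferases had changes nearer to 0. Gstp1, the pi class enzyme that is abundant in male mouse liver, changed by -0.06 ± 0.24 (SE) on its brightest probe and by 0.02 and 0.14 on the others, all with overlapping arrays. Gstz1, the maleylacetoacetate isomerase of tyrosine breakdown, changed by -0.07 ± 0.19 (SE). Gstk1, the mitochondrial and peroxisomal kappa enzyme, changed by 0.27 ± 0.18 (SE). Mgst1, the microsomal enzyme, changed by -0.22 ± 0.15 (SE) on its brightest probe, with KO arrays wholly below WT. Over the 6 arrays the groups of that probe overlapped, and the other Mgst1 probe changed by -0.03 with overlap in the 5 arrays. Gsto1, which reduces dehydroascorbate, changed by -0.19 ± 0.16 (SE), with KO arrays wholly below WT. Mgst3 changed by 0.46 ± 0.29 (SE), Gstp2 by 0.22 ± 0.26 (SE) and Gsto2, detected on 1 of 2 KO arrays, by 0.0025 ± 0.21 (SE). The 95% interval of the Gstp1 change ran from -0.60 to 0.48, and these arrays could not tell changes within it apart.

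**Figure D3:**
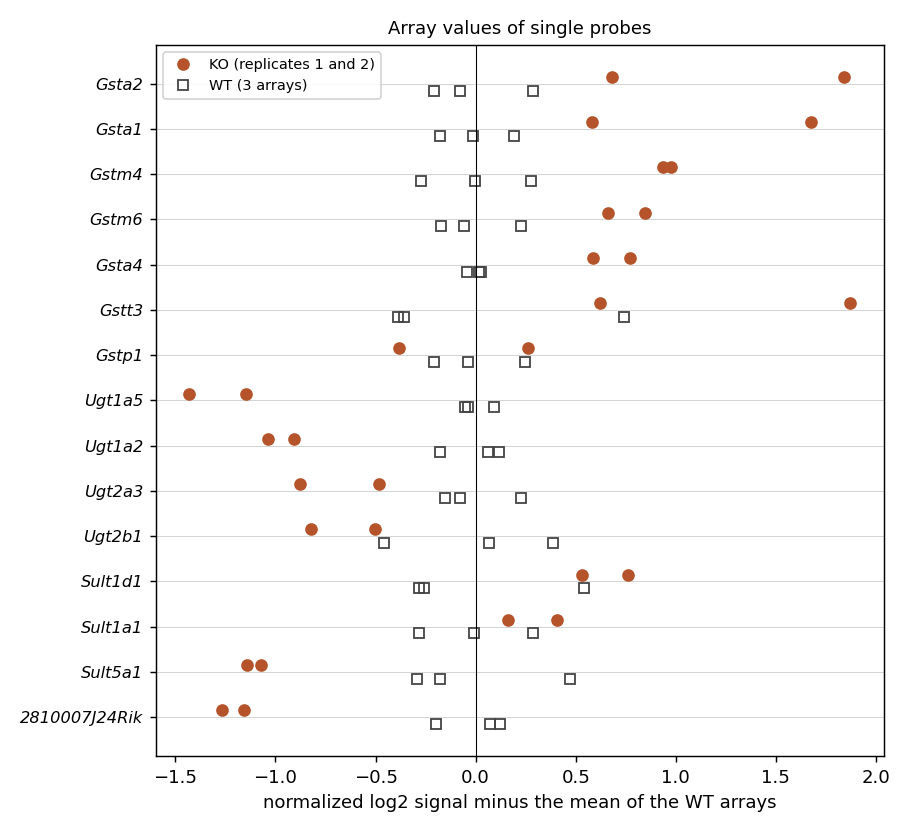
Normalized log2 signal of single probes minus the mean of the WT arrays (x axis), with KO replicates 1 and 2 as filled circles and the WT arrays as open squares. Circles of Gsta2, Gsta1, Gstm4, Gstm6 and Gsta4 lie right of all squares; those of the called Ugt1a5 probe, Ugt1a2, Ugt2a3, Ugt2b1, Sult5a1 and 2810007J24Rik lie left of them.

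Among the glucuronosyltransferases, the Ugt1a probes lay mostly below 0: 12 of 14 tested probes and 6 of 8 gene symbols by the brightest probe. The symbols Ugt1a12 and Ugt1a9 name the same gene in RefSeq and were counted apart, here and in the class counts and medians. The Ugt1a genes of one cluster on chromosome 1 have a first exon each and share the later exons, so a probe in a shared exon reads several of them, and no source used here gives probe positions. The called probe belongs to Ugt1a5. Its deposited signals were 97.1, 103.9 and 83.3 in KO replicates 1, 2 and 3, against 145.2, 138.1 and 132.4 in WT replicates 1, 2 and 3. Every KO signal was below every WT signal. Signals lay below every WT array for 55, 10 and 59 of the 59 tested conjugating enzyme probes on KO replicates 1, 2 and 3. Over all 14345 tested probes the shares were 85.9%, 11.2% and 99.8%. The low signals on KO replicates 1 and 3 therefore do not single out this probe. The probe was detected on 1 of 3 KO arrays and on 3 of 3 WT arrays, so that the KO level lay near background.

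After normalization the Ugt1a5 probe read 4.49 and 4.77 in KO livers and 5.87, 6.01 and 5.88 in WT livers. On the log2 scale it fell by 1.29 ± 0.17 (SE), 2.45-fold lower, with a limma adjusted p of 0.0284. Over all 6 arrays it changed by -1.26 ± 0.21 (SE), again without overlap, but with an adjusted p of 0.653. Its direction was the same under all 15 other settings and it was called under 6 of them; the call was lost without WT replicate 1, 2 or 3 (log2 change -1.26, -1.24 and -1.30) and in the authors' value table, where it changed by -0.40. The other Ugt1a5 probe changed by 0.20 ± 0.34 (SE): KO replicate 1 read 6.49 and KO replicate 2 read 5.29 on it, either side of the WT values of 5.47 to 6.03. The fall therefore holds for 1 of the 2 Ugt1a5 probes.

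Ugt1a2, the next gene along the cluster, read 5.45 and 5.32 in KO livers and 6.18, 6.48 and 6.42 in WT livers. The arrays did not overlap, the log2 change was -0.97 ± 0.17 (SE), and the limma adjusted p was 0.0822, which missed the threshold. It was -1.26 ± 0.34 (SE) in the 6 arrays, also without overlap, but the probe was not detected on KO replicate 3. Ugt1a9 read 4.49 and 5.93 in KO livers and 5.73, 6.69 and 5.87 in WT livers, with overlap, a change of -0.88 ± 0.43 (SE) and detection on 1 of the 2 KO arrays. The probe listed as Ugt1a12, a name that RefSeq gives as an older name of Ugt1a9, changed by -0.61 ± 0.34 (SE).

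The promoters of Ugt1a5, Ugt1a2 and Ugt1a9 are shown because each gene of the cluster is transcribed from its own start, and these gave the lowest Ugt1a values. Build, window and capitals are as for the alpha genes.
Ugt1a5 (chr1:88165762-88166061, plus strand): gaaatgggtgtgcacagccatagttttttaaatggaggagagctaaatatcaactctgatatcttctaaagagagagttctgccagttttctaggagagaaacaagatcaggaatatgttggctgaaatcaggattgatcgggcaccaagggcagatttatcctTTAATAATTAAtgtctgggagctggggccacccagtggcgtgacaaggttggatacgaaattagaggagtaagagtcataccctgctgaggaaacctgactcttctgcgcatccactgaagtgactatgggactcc
Ugt1a2 (chr1:88200361-88200660, plus strand): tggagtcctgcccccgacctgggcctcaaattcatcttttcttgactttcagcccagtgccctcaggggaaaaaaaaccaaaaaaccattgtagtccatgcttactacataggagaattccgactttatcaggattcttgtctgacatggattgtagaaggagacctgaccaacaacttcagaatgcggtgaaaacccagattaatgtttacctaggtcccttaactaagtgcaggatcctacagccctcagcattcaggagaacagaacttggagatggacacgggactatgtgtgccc
Ugt1a9 (chr1:88070529-88070828, plus strand): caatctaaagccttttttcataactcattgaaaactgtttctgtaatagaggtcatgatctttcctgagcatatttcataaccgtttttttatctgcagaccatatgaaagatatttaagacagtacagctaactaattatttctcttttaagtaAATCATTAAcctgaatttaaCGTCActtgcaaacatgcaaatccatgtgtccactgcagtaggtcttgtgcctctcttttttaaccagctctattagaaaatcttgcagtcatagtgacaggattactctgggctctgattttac
Ugt1a5 held the TTAATNATT core as 2 overlapping matches, 1 on each strand, and Ugt1a9 held 1 TTAATNATT match and 1 TGACG match. Ugt1a2 held none of the 4 motifs. Of the 11 windows of tested glucuronosyltransferases, 5 held TTAATNATT (Ugt1a10, Ugt1a9, Ugt1a5, Ugt1a1 and Ugt2b35), as did 1 of 4 of the tested sulfotransferases (Sult1d1) and 0 of 28 of the tested glutathione transferases. This motif was added after the Ugt1a5 window had been read. Genes with it and without it lay on both sides of 0, as Ugt2b35 (0.18) and Ugt1a2 (-0.97) show.

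Ugt1a10 had 4 tested probes, all below 0. The probe with the largest difference read 6.56 and 6.48 in KO livers and 7.18, 7.63 and 7.37 in WT livers, a log2 change of -0.87 ± 0.18 (SE, limma adjusted p = 0.144). The other 3 probes changed by -0.28, -0.28 and -0.26. Ugt1a6a, an enzyme for planar phenols, gave 3 different readings: -0.54 ± 0.17 (SE) with KO arrays wholly below WT, -0.18 ± 0.17 (SE) with overlap, and 0.11 ± 0.15 (SE) with KO arrays wholly above. Ugt1a1, the bilirubin-conjugating enzyme, changed by -0.25 ± 0.23 (SE) and Ugt1a6b by -0.08 ± 0.16 (SE), both with overlap.

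**Figure D4:**
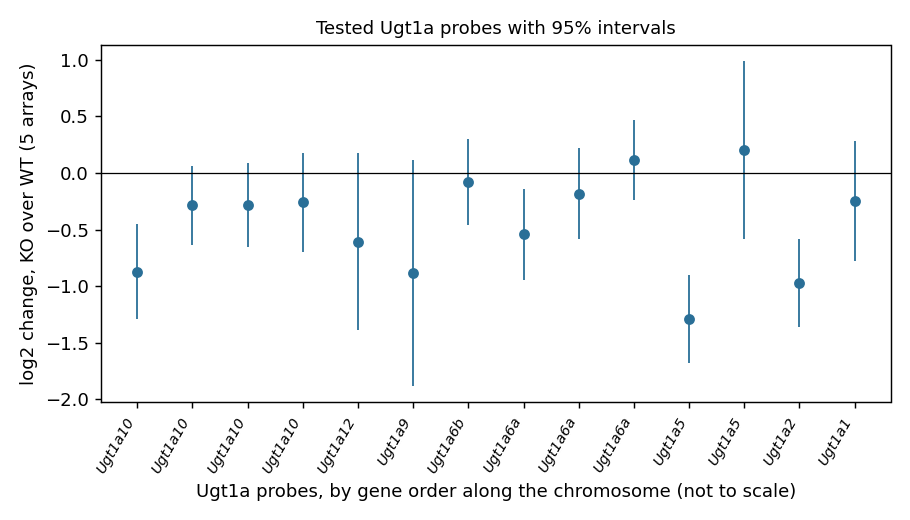
Log2 change, KO over WT in the 5 arrays (y axis), of the 14 tested Ugt1a probes with 95% intervals from limma, ordered by gene along chromosome 1. All but 2 points lie below 0; probes of the same gene, such as the pair for Ugt1a5 at -1.29 and 0.20, can lie far apart.

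In the Ugt2 families, Ugt2a3 read 8.33 and 7.94 in KO livers and 8.66, 8.74 and 9.04 in WT livers, a log2 change of -0.68 ± 0.20 (SE, limma adjusted p = 0.279). Both KO values were below all WT values, and with KO replicate 3 included the change was -0.90 ± 0.29 (SE), again without overlap. Ugt2b1 read 9.19 and 9.51 in KO livers and 10.40, 9.56 and 10.08 in WT livers. KO replicate 2 lay just below WT replicate 2, and the change was -0.66 ± 0.26 (SE, limma adjusted p = 0.387). Ugt2b34, Ugt2b35 and Ugt2b36 lay the other way, at 0.21 ± 0.23, 0.18 ± 0.25 and 0.10 ± 0.20 (SE), all with overlapping arrays.

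Few sulfotransferases were measurable. Sult1a1, the main phenol sulfotransferase, changed by 0.29 ± 0.21 (SE) and Sult1c2 by 0.36 ± 0.22 (SE), with overlap. Sult1d1, which sulfates catecholamines in mice, read 9.48 and 9.26 in KO livers and 8.47, 9.26 and 8.44 in WT livers on its brighter probe, a change of 0.65 ± 0.27 (SE, limma adjusted p = 0.398). WT replicate 2 reached the KO values, while the other WT arrays were lower. With KO replicate 3 included, where the probe was not detected, Sult1d1 changed by -0.71 ± 1.13 (SE).

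By the brightest probe of each gene, Sult5a1 had the lowest log2 change of all members in the 5 arrays. It read 4.83 and 4.76 in KO livers and 6.37, 5.61 and 5.72 in WT livers, a change of -1.11 ± 0.24 (SE, limma adjusted p = 0.160), and it was detected on 1 of the 2 KO arrays. In the 6 arrays KO replicate 3, where the probe was not detected, read 6.89 and the change was -0.29 ± 0.64 (SE), so the separation was lost.

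A sulfotransferase that the array lists under the clone name 2810007J24Rik, and RefSeq as Sult2a8, fell outside the symbol rule and was looked up after its values were seen. Sult2a8 is a bile acid sulfotransferase of mouse liver. Its deposited signals were 416.5, 1195 and 115.7 in KO replicates 1, 2 and 3, against 3083, 2040 and 2408 in WT replicates 1, 2 and 3. It read 9.91 and 9.80 in KO livers and 11.19, 10.87 and 11.14 in WT livers, so on the log2 scale it fell by 1.21 ± 0.17 (SE), 2.32-fold lower, with a limma adjusted p of 0.0377. Over the 6 arrays 2810007J24Rik changed by -0.84 ± 0.36 (SE), and KO replicate 3 at 10.71 overlapped the WT arrays (10.61 to 10.93). The call was kept under 6 of 15 other settings, with every change below 0; without WT replicate 1, 2 or 3 or without KO replicate 1 it was lost, at log2 changes of -1.16, -1.31, -1.17 and -1.26. The 8 other probes under clone names that RefSeq pairs with Sult genes were not detected well enough to be tested.

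The supply routes of the 3 conjugation reactions gave no call. For glutathione supply 8 of 11 listed genes were tested, 6 above 0, with a median log2 change of 0.20. Glutathione synthetase, Gss, changed by 0.53 ± 0.18 (SE) with KO arrays above all WT arrays, and Cbs, of the transsulfuration route to cysteine, by 0.58 ± 0.23 (SE) with overlap. For UDP-glucuronate supply 4 of 6 listed genes were tested, 2 above and 2 below 0 (median 0.03). Ugdh, whose probe was detected on no array, and Slc35d1 could not be tested, so the median does not cover them. Of those tested, Ugp2, which makes UDP-glucose, changed by 0.21 ± 0.18 (SE), and Ugcg, which uses it for ceramide, by -0.31 ± 0.22 (SE). For PAPS supply and sulfate turnover all 9 listed genes were tested, 6 above 0 (median 0.09). Bpnt1, which clears the by-product of sulfation, changed by 0.47 ± 0.17 (SE) on its brightest probe. Its other tested probes disagreed, at 0.23 with KO arrays wholly above WT and -0.19 with KO arrays wholly below. Arsa, a lysosomal sulfatase, changed by 0.33 ± 0.18 (SE) and the PAPS synthase Papss2 by -0.20 ± 0.19 (SE).

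Other steps around conjugation were as uneven. Of 10 tested enzymes of other conjugation reactions 4 were above 0 and none was called. Among them Nnmt, the nicotinamide methyltransferase, changed by 0.93 ± 0.36 (SE) with overlap. Of 4 tested hydrolases, the beta-glucuronidase Gusb, Ces1, Ephx1 and Ephx2, 1 was above 0 (median -0.25). Gusb changed by -0.15 ± 0.17 (SE) on its brightest probe, with overlap. Ces1 changed by -0.36 ± 0.19 (SE) and Ephx2, the soluble epoxide hydrolase, by -0.34 ± 0.17 (SE). Of 5 tested conjugate exporters none was called, and Abcc2, the canalicular exporter, changed by -0.24 ± 0.18 (SE) and Abcc6 by 0.21 ± 0.19 (SE).

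Of 9 tested regulators of xenobiotic and redox genes, Ppara was called lower; it read 4.42 and 4.72 in KO livers and 5.85, 5.74 and 5.85 in WT livers (log2 change -1.24 ± 0.17 SE, limma adjusted p = 0.0345). The Ppara probe was detected on 1 of 3 KO arrays and on 3 of 3 WT arrays, so the KO level lay near background, and in the authors' value table it changed by -0.37. The call was kept under 4 of 15 other settings; without WT replicate 1, 2 or 3 or KO replicate 1 it was lost, at -1.17, -1.27, -1.22 and -1.20. Keap1, which holds NRF2 in the cytosol, changed by 0.35 ± 0.15 (SE) on its brightest probe, without overlap. Its other tested probes changed by 0.74 without overlap, and by 0.08 and -0.07 with overlap. Among NRF2 targets other than glutathione transferases 8 of 10 tested genes were above 0 (median 0.22), none was called and none had groups apart. Srxn1 changed by 0.62 ± 0.35 (SE) and Hmox1 by 0.48 ± 0.25 (SE), with KO replicate 2 the higher KO array for both, as it was for Gsta1 and Gsta2.

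Markers of cell position and cell type moved beside these values. All 6 tested pericentral hepatocyte markers were below 0 and 4 had KO arrays wholly below the WT arrays, among them Cyp2e1 at -0.47 ± 0.15 (SE). Their summed log2 level was 14.54 to 14.68 in KO livers and 14.96 to 15.09 in WT livers. All 5 tested Kupffer cell and macrophage markers were above 0, 3 of them without overlap. Their summed log2 level was 10.06 to 10.27 in KO livers and 9.88 to 10.05 in WT livers. Of all tested probes 45.4% were above 0, and KO arrays lay wholly below WT for 16.4% and wholly above for 12.9%. None of these pericentral and Kupffer cell markers was called. Over the 6 arrays 1 of the 6 and 2 of the 5 were above 0 (medians -0.22 and -0.14), beside 27.3% of all tested probes. Of 6 tested periportal markers 3 were above 0 (median -0.02), and Pck1, the gluconeogenic enzyme that is also fasting-induced, was called lower at -1.73 ± 0.21 (SE, limma adjusted p = 0.0227). All 3 tested erythroid markers were below 0 (median -0.64) without a call, and their summed log2 level was 13.17 to 14.51 in KO livers and 14.39 to 14.68 in WT livers. Endothelial markers were above 0 for 3 of 4 tested genes (median 0.25), with KO arrays wholly above WT for 2 and wholly below for 1. Both 2 tested stellate and fibroblast markers (median 0.21) and both 2 tested cholangiocyte markers (median 0.27) were above 0. Over the 6 arrays the medians of these 3 lists were -0.23, 0.63 (3 tested) and -0.77. The part of all these markers in the conjugating enzyme values was not tested.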

How the data were processed

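Total liver RNA of 3 KO and 3 WT mice was hybridised to 1 Illumina WG-6 array each. The deposited files hold an average intensity per probe, not normalized, and a detection p-value per probe, per the file headers; the authors used BeadStudio 3, per the submitters' processing notes. The authors' value table holds normalized intensities of the same arrays (method not given in the sources used here). Its medians were 91.6 to 91.7, and its columns for WT replicates 2 and 3 matched each other's arrays; this changes no group.

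Intensities were corrected by normexp on negative control signals that neqc infers through the detection p-values, with an offset of 16, quantile-normalized and put on a log2 scale (neqc, limma 3.58.1, R 4.3.3). The deposited detection p-values served as the filter: under 0.05 on at least 3 arrays. A limma model of genotype was fitted to the 5 arrays and to all 6, two-sided, with Benjamini-Hochberg adjustment. The number of arrays limits the precision, and n = 2 for KO in the 5 arrays. The quantile normalization and the limma fit were tested on simulated log2 signals with known changes. Background correction, the detection filter and a dim array were not part of that simulation. Symbols were matched to RefSeq (GRCm38.p6) for 27740 probes by symbol and 8037 by synonym; 9504 did not match. Promoter windows were found for 48 of 54 members, from RefSeq on GRCm38.p6, and aligned with Biopython 1.88.

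Named were Creb3l3, called members, the 6 brightest genes and the 6 with the largest changes in each class, genes whose probes disagreed, and the 2 genes with the smallest p in each pathway list, 1 of which is not reported here; other members were named to account for all. Members, lists and tests were chosen with earlier results of these data known. Replicates are separate mice, which the labels number 1 to 3 in both groups without saying that a number pairs littermates. Deviations of same-numbered mice from their group means correlated at -0.05, -0.05 and 0.04, so the samples were not treated as pairs.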

Additional observations from a re-analysis of the deposited data

How the results depend on the processing

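The count of called conjugating enzyme probes in the 5 arrays, 1, ran from 0 to 13 when each mouse was left out in turn: 13 of 58 without KO replicate 2 (7 higher and 6 lower, beside 5.89% and 10.8% of all tested probes), 3 without KO replicate 1 (beside 0.0921% and 0.198%) and 0 without any of the WT replicates. With 1 KO array left, its spread is assumed to be that of the WT arrays. The count was 0 with median scaling, no detection filter, array weights, the authors' value table or the replicate block, and 2 with an offset of 50 or a trended and robust variance (Gstm4 besides Ugt1a5); cyclic loess and a stricter filter gave 1. In the 6 arrays it was 20 with array weights, 12 higher and 8 lower of 59, beside 7.11% and 12.4% of all tested probes, and 0 otherwise. The causes were not tested. Median scaling put the median of all probes at -0.42 (5 arrays) and -0.87 (6 arrays). Relative to all probes, the glutathione transferase median in the 5 arrays was 0.33 with median scaling, 0.25 with no detection filter, 0.29 in the authors' value table and 0.33 to 0.53 with each mouse left out; it was above 0 under all 14 alternatives. For glucuronosyltransferases it was -0.44 with median scaling, -0.081 with no filter and -0.24 to -0.14 with each mouse left out, below 0 under all 14. For sulfotransferases it was 0.11 with no filter and 0.29 to 0.39 with each mouse left out. In the 6 arrays glutathione transferases stood at 0.41 with cyclic loess, -0.31 with median scaling, 0.41 with array weights and 0.23 to 0.37 with each mouse left out. Glucuronosyltransferases stood there at -1.12 with median scaling and -0.11 to 0.12 with each mouse left out, and sulfotransferases at 0.33 with cyclic loess, -0.56 with median scaling, 0.30 with array weights and -0.03 to 0.17 with each mouse left out.

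Single genes turned their direction as follows; the cause was not tested. Over all 6 arrays, relative to all probes, the log2 change was 0.22 for Abcc2, -0.20 for Gsta4, -0.46 for a Gstm2 probe, 0.25 for a Gstp1 probe, -0.14 for Gstt3, 0.18 for Gstz1, -0.41 for Keap1, 0.14 for Mgst1, -0.43 for Sult1d1, 0.12 for Ugt1a1, 0.24 for Ugt1a12, -0.039 for the Ugt1a5 probe that was not called, -0.012 and 0.21 for Ugt1a6a probes and 0.19 for Ugt1a6b. With median scaling, on the same footing, it was -0.026 for Abcc6, -0.025 for Gsta3, -0.021 for Gstk1, -0.035 for a Gstm2 probe, -0.17 and -0.19 for Gstp1 probes, -0.080 for Ugp2, -0.21 for a Ugt1a6a probe, -0.15 for Ugt2b35 and -0.081 for Ugt2b36. Array weights gave 0.034 and 0.0014 for Gstm2 probes, the replicate block -0.0047 and cyclic loess 0.14 for Gstp1 probes. With each mouse left out the change ran between -0.054 and 0.47 for Abcc6, -0.017 and 0.41 for Gsta3, -0.24 and 0.20, -0.37 and 0.19, and -0.24 and 0.55 for the Gstm2 probes, -0.17 and 0.19, and -0.39 and 0.25 for Gstp1 probes, -0.23 and 0.094 for Gstz1, -0.066 and 1.31 for Srxn1, -0.58 and 0.082 for Ugt1a1, -0.43 and 0.78 for the Ugt1a5 probe that was not called, -0.22 and 0.57 for Ugt2b35, and -0.11 and 0.30 for Ugt2b36. Of the single-probe values, 747 kept their direction and side of the threshold. Under the replicate block, the Ugt1a5 call was lost at -1.31 and the 2810007J24Rik call at -1.18; that gene was added after its values were seen. Single genes were rerun in the 5 arrays and over all 6 only. Probes near background, such as Ugt1a5, Ugt1a9, Sult5a1 and Ppara in KO livers, limit what the arrays can show. Gsta4, Gstt3, Keap1 and Sult1d1, among others, were not detected on KO replicate 3, so their values over all 6 arrays include a background reading.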
